A study of Mus musculus with 9 samples.

Results

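The Bcl2 locus was taken as the 280 kb window chr1:108360000-108640000 (mm8), and its members are the stretches of that window in which the authors had called a Stat5a or a Stat5b peak. Joining the overlapping peaks of the 6 deposited lists gave 43771 merged regions in the genome, and 42 of them lie in the window. They are numbered 1 to 42 here in the order of their coordinates. Regions 9 to 21 form a dense group of 13 regions within 35759 bp (chr1:108412837-108448595), and the other 29 are the rest of the window. The dense group is a run of regions found in at least 2 lists with gaps under 10 kb between them, together with the regions found in 1 list that lie inside that run. The members were chosen by the peaks called in these same libraries, so the excess of the Stat5 reads over the control in them is a description and not a result. A region found only in lists of 1 stage or 1 antibody entered through its high reads there. Its ratios between stages or antibodies are favoured by that choice and are a description too.

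The study mapped where Stat5b and Stat5a bind in CD4+ T cells of the mouse as they differentiate into Th2 cells, using ChIP-seq, in which antibody-bound chromatin is sequenced. The stages were 8 h, 13 h and 2 rounds of Th2 differentiation. At each stage 1 library was made with an antibody to Stat5b, 1 with an antibody to Stat5a and 1 with control IgG, which makes 9 libraries with no replicate of any. The labels name no strain, genotype, age or cytokine dose and refer to a publication for growth and treatment. With 1 library in each group no difference could be set against the spread between replicates and no test was made. Ratios are given with exact 95% intervals that cover counting error only, and a ratio was called where its interval lay wholly above 2 or wholly below 0.5.

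Bcl2 encodes a mitochondrial membrane protein that holds back apoptosis by binding pro-apoptotic relatives, and it is the founding member of its family. In T cells its level is set in part by cytokines that signal through the common gamma chain, among them IL-2 and IL-7. These receptors activate Stat5a and Stat5b, closely related transcription factors encoded by neighbouring genes, which are phosphorylated, form dimers and bind DNA. In the RefSeq annotation of GRCm38, a later build than that of the reads, the gene is 176115 bp long and its nearest protein-coding neighbours are Phlpp1 and Kdsr. No mm8 annotation was used, so whether a region lies in an intron, an exon or outside the gene was not determined here.

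Library depth in reads mapped was 6867047, 9036070 and 7656900 for Stat5b at 8 h, 13 h and after 2 rounds. It was 3130228, 8311042 and 6645271 for Stat5a, and 6241015, 7525521 and 5787254 for IgG. Values are therefore given as reads per 1000000 mapped reads (RPM), counted at the 5′ end of each read. Distinct starts, with each start and strand counted once, numbered 61.0% to 74.1% of the reads of a library. The Stat5a library at 8 h was the shallowest, so the same RPM rests there on the fewest reads.

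Along the window the Stat5 reads were gathered in a few narrow peaks, and the tallest stood inside the dense group. In all 6 Stat5 libraries the 500 bp bin with the most reads above IgG was chr1:108434501-108435000 in region 17. It held 13.5, 32.9 and 72.1 RPM for Stat5b at 8 h, 13 h and after 2 rounds, and 35.5, 23.8 and 27.8 RPM for Stat5a. The IgG libraries held 0.481, 0.399 and 0.864 RPM there. The second bin was also the same in all 6 libraries, chr1:108440001-108440500 in region 18. The third lay in region 14 in both 8 h and both 13 h libraries, in region 18 for Stat5b after 2 rounds and in region 20 for Stat5a after 2 rounds.

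**Figure D1:**
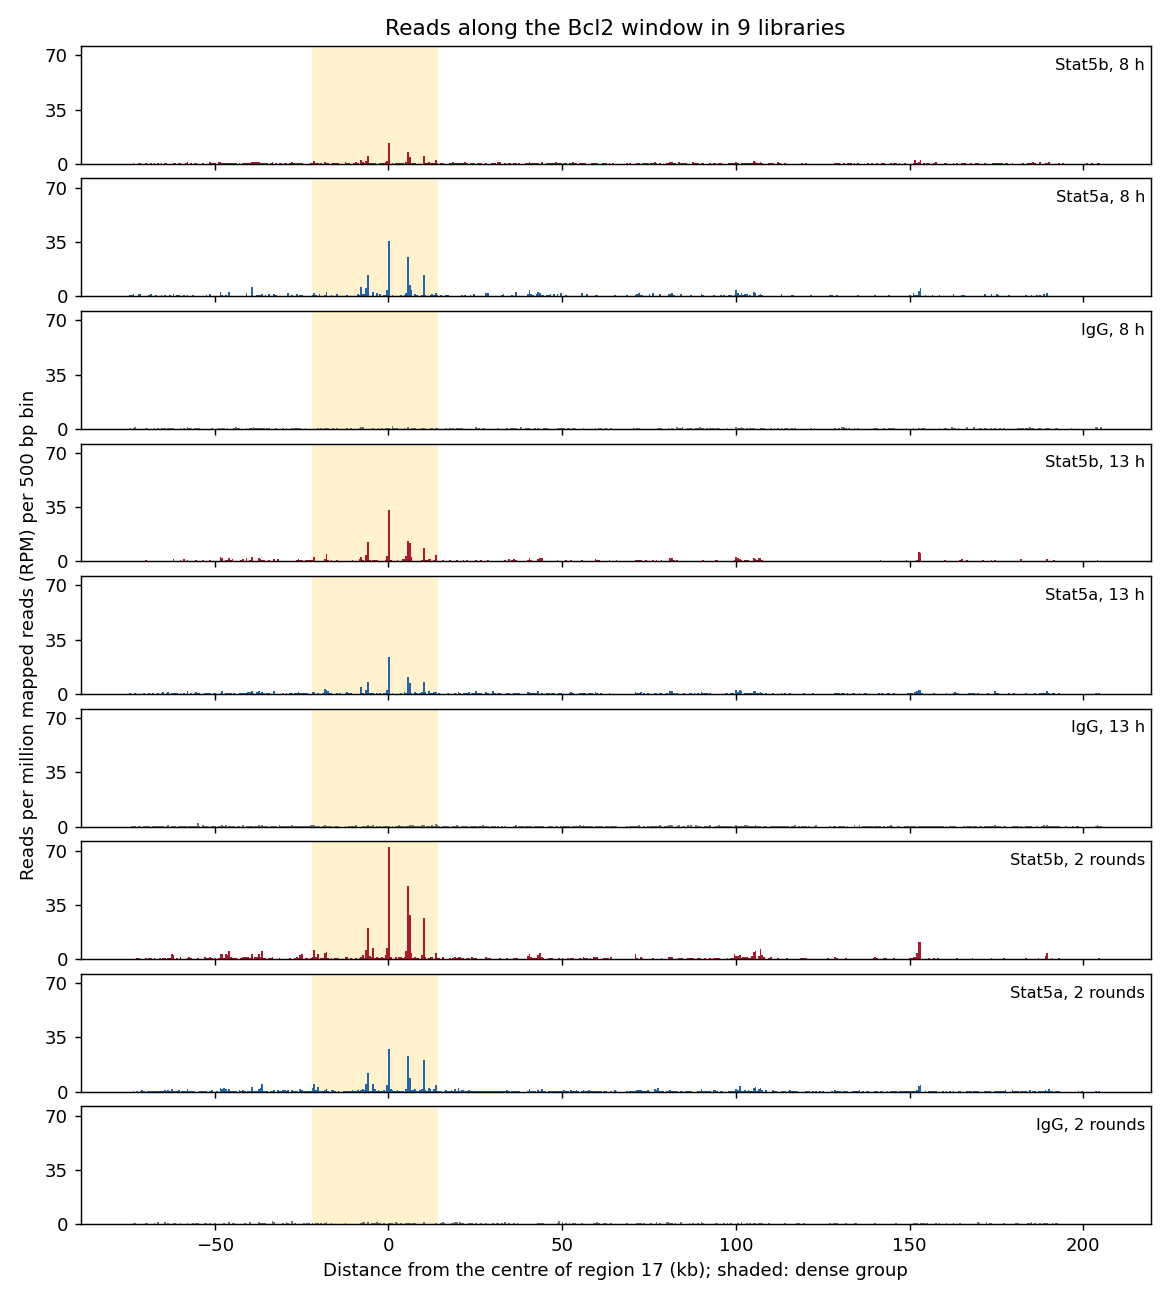
RPM per 500 bp bin along the Bcl2 window in the 9 libraries, plotted against the distance in kb from the centre of region 17, on 1 scale for all rows; the shaded band is the dense group. The tallest bar reaches 72.1 RPM for Stat5b after 2 rounds, and no IgG bar stands out on this scale.

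Bins were laid out without the peak lists but count the same reads, so they too are a description. A bin was compared where the Stat5 and the IgG library of the stage held at least 5 reads together. At 8 h, 7 of 203 window bins were called above IgG for Stat5b, where 0.462% of bins were called in the genome, and 16 of 142 for Stat5a, where 3.97% were. At 13 h, 23 of 311 bins were called for Stat5b and 18 of 301 for Stat5a, with 1.21% and 1.19% in the genome. After 2 rounds, 35 of 301 bins were called for Stat5b and 18 of 264 for Stat5a, with 3.02% and 1.5% in the genome. The dense group is 12.8% of the window and held 5, 12 and 14 of the called Stat5b bins at the 3 stages and 10, 11 and 10 of the called Stat5a bins. Outside it 2, 11 and 21 Stat5b bins and 6, 7 and 8 Stat5a bins were called.

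The 6 lists placed 108 peaks in the window, 50 of them in the dense group. The Stat5b lists held 14, 18 and 35 peaks in the window at 8 h, 13 h and after 2 rounds, and the Stat5a lists held 12, 16 and 13. In the dense group these numbers were 9, 8 and 12 for Stat5b and 7, 7 and 7 for Stat5a. In the rest of the window they were 5, 10 and 23 for Stat5b and 5, 9 and 6 for Stat5a. The lists differ in length, from 3990 peaks for Stat5b at 8 h to 33692 for Stat5b after 2 rounds, so these counts show no change by themselves. Peaks covered 4.74%, 14.2% and 27.1% of the dense span in the Stat5b lists, against 0.184%, 1.85% and 5.82% of the rest. In the Stat5a lists they covered 9.74%, 9.68% and 12.2% of the dense span, against 0.694%, 0.922% and 0.972% of the rest.

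Most regions of the window came from few lists. Of the 42 regions, 23 came from 1 list, 6 from 2, 4 from 3, 1 from 4, 3 from 5 and 5 from all 6. In the genome 63.3% of merged regions came from 1 list and 2.63% from all 6. The dense group is by definition built on regions found in at least 2 lists, so its share of them is no finding. Of the regions found in 3, 4, 5 and 6 lists, 2, 0, 1 and 4 lie in the dense group and 2, 1, 2 and 1 in the rest. The 5 regions found in all 6 lists were regions 14, 17, 18 and 20 of the dense group and region 41, which lies 143 kb beyond region 20. The same 5 regions were called above IgG in all 6 Stat5 libraries, which was the case for 0.912% of merged regions in the genome. At each stage the lists of the 2 antibodies overlapped unevenly. After 2 rounds 13 of 32 joined Stat5b peaks met a Stat5a peak and 13 of 13 Stat5a peaks met a Stat5b peak, against 24.8% and 86.0% in the genome. At 13 h these were 10 of 17 and 11 of 16, against 42.4% and 39.5%, and at 8 h 10 of 13 and 6 of 12, against 56.4% and 31.6%.

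Taken over its 13 regions, 10537 bp in all, the dense group held 52.3, 118 and 261 RPM for Stat5b at 8 h, 13 h and after 2 rounds. It held 134, 84.3 and 135 RPM for Stat5a and 9.13, 14.1 and 11.9 RPM for IgG. Every Stat5 library lay above the IgG library of its stage. The ratio to IgG was 5.72 (4.32 to 7.71), 8.39 (6.87 to 10.3) and 21.9 (17.2 to 28.2) for Stat5b. For Stat5a it was 14.7 (11.1 to 19.7), 5.99 (4.88 to 7.42) and 11.3 (8.88 to 14.7). These regions held 22.6%, 32.9% and 43.5% of the window's Stat5b reads, 36.7%, 27.5% and 34.9% of its Stat5a reads and 6.31%, 8.30% and 5.81% of its IgG reads.

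Per kb, the dense regions held 4.96, 11.2 and 24.7 RPM for Stat5b, against 1.55, 4.0 and 7.35 RPM in the regions of the rest. For Stat5a they held 12.7, 8.00 and 12.8 RPM per kb, against 3.83, 2.76 and 3.35 in the rest. The IgG levels were closer together, at 0.867, 1.34 and 1.13 RPM per kb in the dense regions and 0.727, 0.852 and 1.04 in the rest. The stretches between the regions of the dense group also held more Stat5 reads per kb than those of the rest at each stage. There Stat5b gave 0.774, 0.882 and 1.54 RPM per kb, against 0.589, 0.671 and 0.784 in the rest. Stat5a gave 0.823, 0.897 and 1.35, against 0.644, 0.677 and 0.714. IgG gave 0.464, 0.458 and 0.856 RPM per kb in the same stretches, against 0.492, 0.571 and 0.678 in the rest.

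At the edges of the dense group the reads were few. Region 9, the first region inside it, held 6.66 RPM for Stat5b and 6.77 RPM for Stat5a after 2 rounds, and region 21, the last, held 4.70 and 6.02 RPM. Just outside, region 8 held 4.83 RPM for Stat5b and 1.96 RPM for Stat5a after 2 rounds and came from 1 list. Region 22 held 0.784 and 1.05 RPM and also came from 1 list.

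Regions 17 and 18 held the most reads of the group in each Stat5 library. Region 17 (chr1:108433647-108435294) held 15.7, 37.5 and 82.1 RPM for Stat5b at 8 h, 13 h and after 2 rounds, 40.9, 27.1 and 33.1 RPM for Stat5a, and 1.12, 0.797 and 1.21 RPM for IgG. Region 18 (chr1:108439609-108441542) held 13.98, 32.1 and 84.5 RPM for Stat5b, 38.3, 19.4 and 34.2 RPM for Stat5a, and 1.92, 2.26 and 1.73 RPM for IgG. In both, no Stat5 library came near the IgG libraries, and Stat5b after 2 rounds was the highest of the 9. Together they held 56.8%, 58.9% and 63.9% of the group's Stat5b reads and 59.2%, 55.1% and 49.7% of its Stat5a reads. The ratio to IgG in region 17 was 67.9 (32.8 to 170) for Stat5b after 2 rounds and 27.4 (13.1 to 68.9) for Stat5a after 2 rounds. Without regions 17 and 18 the other 11 regions gave ratios to IgG of 3.71, 4.40 and 10.5 for Stat5b and 8.97, 3.44 and 7.57 for Stat5a at 8 h, 13 h and after 2 rounds, all still called.

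Regions 14 and 20 followed. Region 14 (chr1:108428101-108429384) held 6.84, 17.5 and 28.7 RPM for Stat5b, 19.2, 11.1 and 18.1 RPM for Stat5a, and 0.481, 1.86 and 1.38 RPM for IgG. Region 20 (chr1:108444079-108445040) held 5.10, 10.1 and 29.5 RPM for Stat5b, 14.7, 9.75 and 22.6 RPM for Stat5a, and 0.801, 2.52 and 1.38 RPM for IgG. Both had the same order of Stat5b libraries as regions 17 and 18, with 8 h lowest and 2 rounds highest. In region 20 the Stat5b and Stat5a levels at 13 h had overlapping counting intervals.

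The strands of the reads gave a centre for each of these regions. In ChIP-seq the plus-strand starts fall to the left of the bound site and the minus-strand starts to its right. The midpoint of the 2 strands' median starts was taken in each Stat5 library, counting each start once. It stayed within 36 bp in region 14, 32.5 bp in region 17, 70.3 bp in region 18 and 55.5 bp in region 20 over the 6 libraries. The median distance by which minus-strand starts lay downstream was 134, 135, 163 and 125 bp in these regions. In region 20 it ran from 11.5 bp, for Stat5a at 13 h, to 176 bp, for Stat5b after 2 rounds. The median midpoints were chr1:108428588, 108434629, 108440427 and 108444748, which puts them 6.0, 5.8 and 4.3 kb apart. In each of these regions the range of the midpoints over the 6 libraries was smaller than the median distance between the strands. Region 41 could be measured in 4 libraries, and its midpoints ranged over 116 bp. Its distance between the strands was -28 bp for Stat5a at 13 h, with a median of 136 bp.

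**Figure D2:**
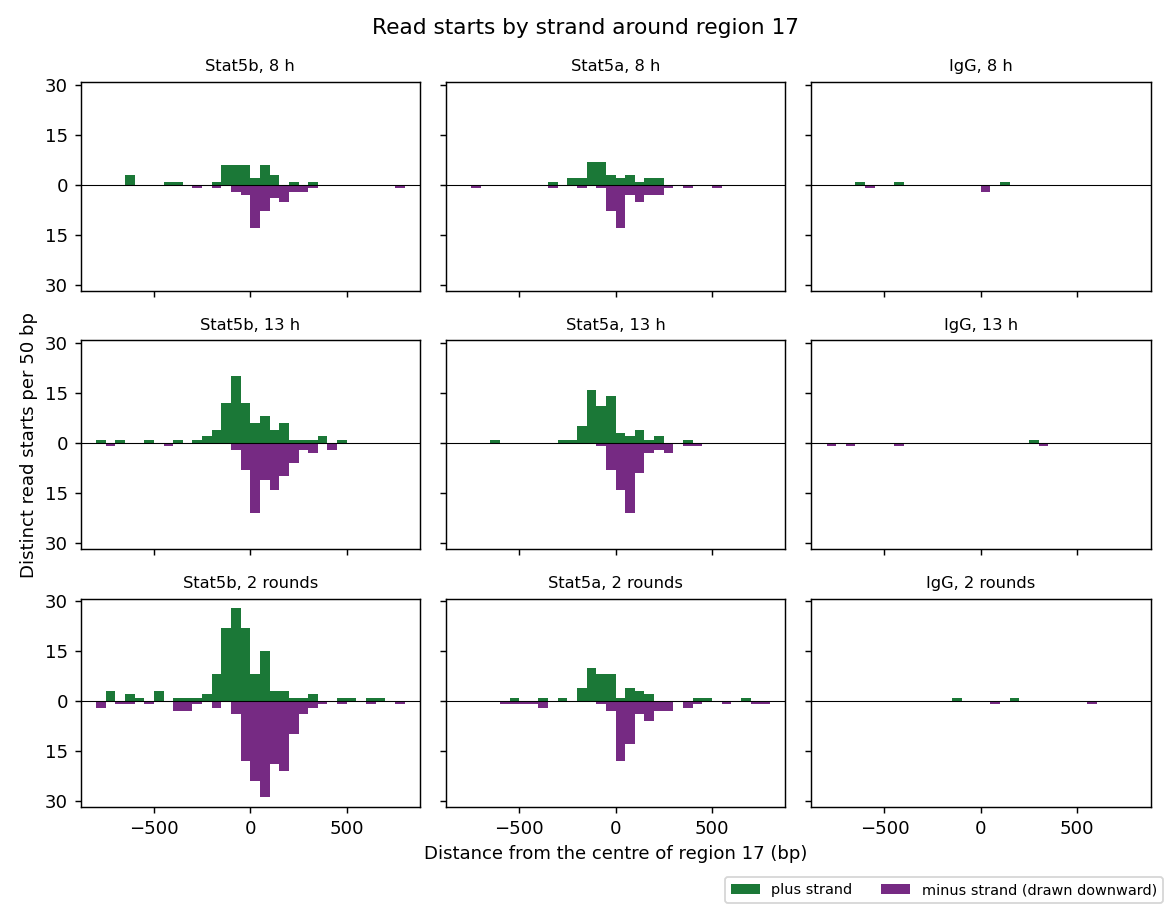
Distinct read starts per 50 bp around the centre of region 17 (distance in bp), with the plus strand drawn upward and the minus strand downward; columns are Stat5b, Stat5a and IgG, and rows are 8 h, 13 h and 2 rounds. In the 6 Stat5 panels plus-strand starts gather left of the centre and minus-strand starts right of it, with a median distance of 135 bp, while the IgG panels hold only scattered starts.

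Stat5b reads in the dense group rose at each later stage. The ratio of RPM was 2.26 (2.00 to 2.56) for 13 h over 8 h, 2.21 (2.05 to 2.38) for 2 rounds over 13 h and 4.99 (4.45 to 5.59) for 2 rounds over 8 h, all called. Of the 13 regions, 7 held more Stat5b RPM at each later stage, and of the 42 in the window 27 did, against 59.3% of merged regions in the genome. At the level of single regions, 20 of 42 were called higher after 2 rounds than at 8 h, 7 of them in the dense group, and 43.4% of merged regions were called in the genome. On distinct starts 13 of 42 were called higher, and no genome share on distinct starts is given here. For 2 rounds over 13 h, 6 of 42 were called higher, with 25.1% in the genome, and region 23, with 0 reads after 2 rounds and 12 at 13 h, was called lower, with 0.637%. Region 23 came from the Stat5b list at 13 h alone, so the choice of regions favoured its fall. For 13 h over 8 h only region 11 was called higher, with 5.27% in the genome. None was called lower for 2 rounds over 8 h or for 13 h over 8 h, with 0.215% and 0.304% in the genome. Counting each start and strand once, 2 rounds over 8 h gave 3.99 (3.48 to 4.58) for the dense group and remained called, while the ratios of 13 h over 8 h and of 2 rounds over 13 h were 1.95 and 2.04 and were no longer called.

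The Stat5b ratios of the locus were close to those of merged regions at large, a set chosen by the same peaks. The Stat5b list held 33692 peaks after 2 rounds and 3990 at 8 h, and 63.3% of merged regions came from 1 list. Many regions thus entered through high Stat5b reads after 2 rounds. That choice favours higher 2-round Stat5b ratios and called shares in the genome. Over all merged regions with reads in both libraries the median ratio was 1.90 for 13 h over 8 h, 2.58 for 2 rounds over 13 h and 4.82 for 2 rounds over 8 h. Relative to these medians the dense group stood at 1.19 (1.05 to 1.34), 0.855 (0.794 to 0.922) and 1.03 (0.924 to 1.16), and none was called. With that scaling 0 of 42 regions were called higher after 2 rounds than at 8 h and 1 lower, a region of the dense group, where 1.84% and 4.55% of merged regions were called in the genome. The same comparison was made with the 208 groups of the genome that hold at least 5 regions found in 2 or more lists. There the Stat5b ratio of 2 rounds over 8 h had a median of 4.84 and a 10th to 90th percentile range of 2.38 to 8.12, and the 9 such regions at Bcl2 gave 4.93. For 13 h over 8 h the group median was 2.27 and Bcl2 gave 2.27. For 2 rounds over 13 h the group median was 2.03 and Bcl2 gave 2.17. The level of the Bcl2 group is a description, since peaks called on these reads chose the group. By RPM above IgG summed over the 9 regions, the mean of Stat5b and Stat5a, its rank among 11296 groups was 3 at 8 h, 3 at 13 h and 4 after 2 rounds, with 83.1, 85.3 and 182 RPM. A sum grows with the number of regions, by which its rank was 16.

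Stat5a reads of the dense group did not pass the call at any step. The ratio was 0.630 (0.557 to 0.713) for 13 h over 8 h, 1.60 (1.45 to 1.77) for 2 rounds over 13 h and 1.01 (0.899 to 1.14) for 2 rounds over 8 h. The 2-round and 8 h libraries thus held nearly the same RPM and the 13 h library less. In 7 of the 13 regions, and in 17 of 42 in the window, Stat5a RPM was lowest at 13 h, against 28.0% of merged regions in the genome. The median over all merged regions was 0.869, 1.25 and 1.10 for these 3 ratios. Relative to it the dense group stood at 0.725 (0.641 to 0.820), 1.28 (1.16 to 1.42) and 0.920 (0.818 to 1.04). In the 208 groups the medians were 0.767, 1.41 and 1.06. The 9 regions at Bcl2 gave 0.618, 1.60 and 0.988, each inside the 10th to 90th percentile range of the groups. Single regions were called higher after 2 rounds than at 13 h in 2 of 42, with 7.67% in the genome, and none was called lower, with 3.97% in the genome. For 2 rounds over 8 h, 2 were called higher and 2 lower, with 3.73% and 1.91% in the genome. For 13 h over 8 h none was called higher, with 0.286% in the genome, and region 24 was called lower, with 2.15%. Region 24 came from the Stat5a list at 8 h alone, so the choice of regions favoured its fall. On distinct starts the only one of these Stat5a calls left was 1 region higher for 2 rounds over 8 h.

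Read length differed between the Stat5a libraries, and whether it bears on their levels was not tested. Reads of 24 bp, the rest being 25 bp, made up 38.0% of the library at 13 h and 54.5% of that after 2 rounds, and the 8 h library held none. In the dense regions they were 23.7% (20.7% to 27.0%, Wilson) of the Stat5a reads at 13 h and 42.8% (39.6% to 46.1%) after 2 rounds, lower than in the whole library at both stages. On 25 bp reads alone the Stat5a ratio of 13 h over 8 h was 0.775 (0.681 to 0.883) and that of 2 rounds over 8 h was 1.27 (1.11 to 1.45), neither called. On all reads these ratios were 0.630 and 1.01.

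The IgG libraries held more RPM in the dense group at 13 h than at 8 h, the direction also seen for Stat5b. Their dense-group ratio was 1.54 (1.11 to 2.17) for 13 h over 8 h, 0.846 (0.616 to 1.16) for 2 rounds over 13 h and 1.31 (0.906 to 1.89) for 2 rounds over 8 h, none called. Over all merged regions the IgG medians were 0.829, 1.30 and 1.08. In the 208 groups the IgG ratio of 13 h over 8 h had a median of 1.09. The 9 regions at Bcl2 gave 1.64, and 31 groups had a higher ratio. Of the 42 regions, 1 was called for IgG at any step: region 27 held 9 IgG reads after 2 rounds and 0 at 8 h, where 0.551% of merged regions were called higher in the genome. For 13 h over 8 h and for 2 rounds over 13 h the genome held 0.254% and 0.644% called higher. Called lower were 0.461% for 13 h over 8 h, 0.0914% for 2 rounds over 13 h and 0.146% for 2 rounds over 8 h.

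**Figure D3:**
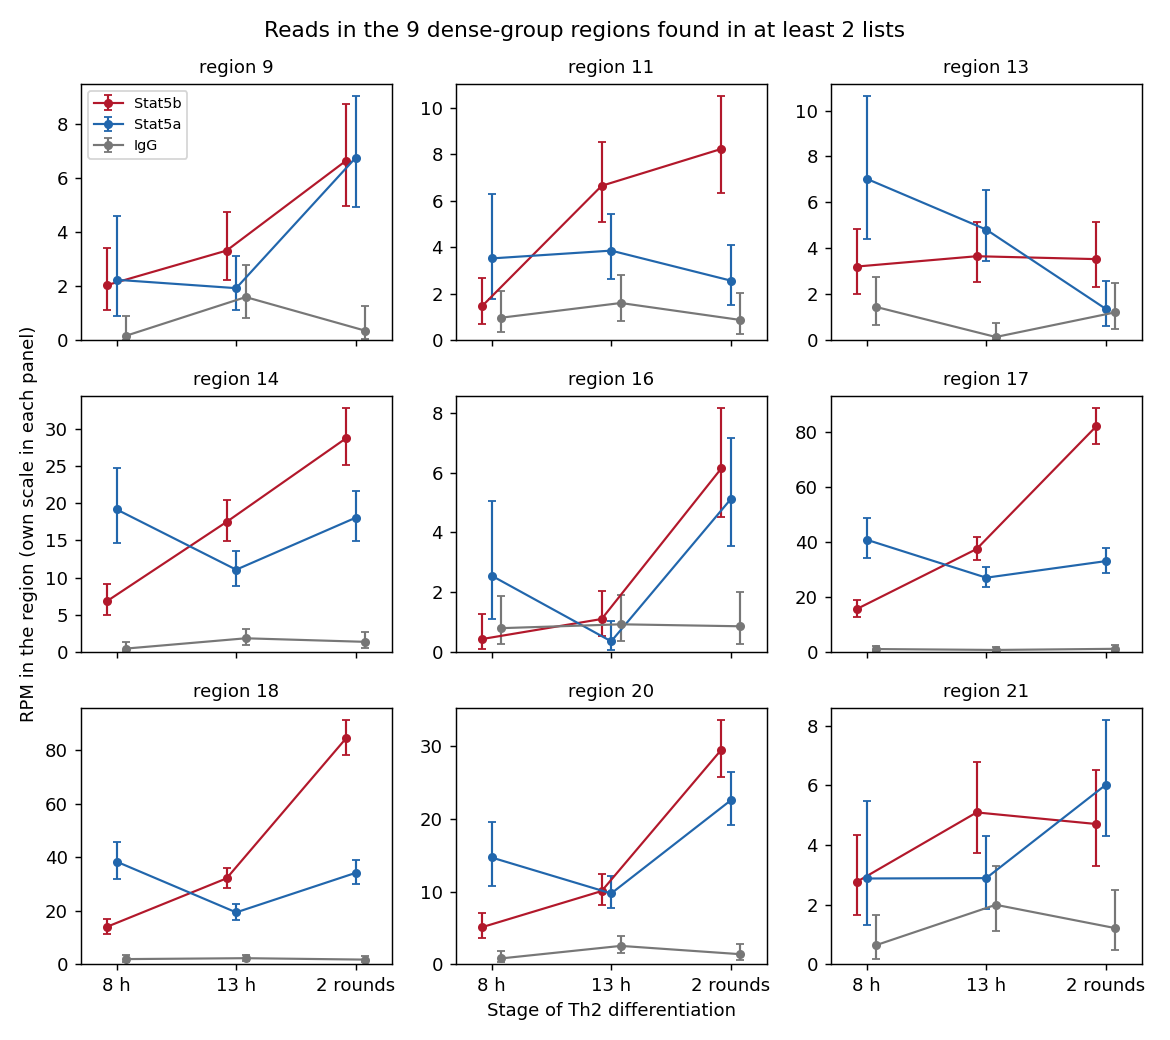
RPM in the 9 regions of the dense group found in at least 2 lists, by stage, for Stat5b, Stat5a and IgG, with exact 95% Poisson intervals for counting error as bars; each panel has its own scale. Stat5b climbs at each stage in regions 14, 17, 18 and 20, and Stat5a has its lowest value at 13 h there. Regions 9 and 16, which came only from 2-round lists, have their highest Stat5 values after 2 rounds.

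The 4 strong regions shared the Stat5b rise. For 2 rounds over 8 h the Stat5b ratio was 4.20 (3.05 to 5.88) in region 14, 5.22 (4.25 to 6.47) in region 17, 6.04 (4.87 to 7.57) in region 18 and 5.79 (4.04 to 8.52) in region 20, all called. These intervals overlap one another. The Stat5a ratio for the same stages was 0.942 (0.685 to 1.31), 0.810 (0.648 to 1.01), 0.891 (0.711 to 1.12) and 1.54 (1.10 to 2.19), none called. For 2 rounds over 13 h the Stat5b ratios of these regions differed more. Region 18 gave 2.63 (2.29 to 3.03) and region 20 gave 2.93 (2.29 to 3.78), both called, against 1.64 (1.33 to 2.03) in region 14, whose interval lies below both. On distinct starts regions 18 and 20 both gave 2.40, with intervals of 1.97 to 2.92 and 1.74 to 3.34, and were no longer called. Region 14 then gave 1.83 (1.36 to 2.47), and its interval overlapped both.

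Regions 16 and 10 held the most reads of both antibodies after 2 rounds. Region 16 (chr1:108430085-108430488) held 0.437, 1.11 and 6.14 RPM for Stat5b at the 3 stages, 2.56, 0.361 and 5.12 RPM for Stat5a, and 0.801, 0.930 and 0.864 RPM for IgG. It was at the IgG level at 13 h and called higher after 2 rounds than at 13 h for both antibodies, with ratios of 5.55 (2.77 to 12.3) for Stat5b and 14.2 (4.46 to 72.1) for Stat5a. On distinct starts these ratios were 4.02 (1.79 to 10.2), from 28 and 8 starts, and 5.59 (1.53 to 30.6), from 13 and 3 starts, and neither was called. Region 10, singled out after its values were seen, held 0, 0 and 25 Stat5b reads and 0, 6 and 21 Stat5a reads at 8 h, 13 h and after 2 rounds. Both regions came only from 2-round lists, so the choice of regions favoured their higher reads at that stage, and these values are a description.

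Region 13 (chr1:108426618-108427365) went the other way for Stat5a. It held 3.20, 3.65 and 3.53 RPM for Stat5b, 7.03, 4.81 and 1.35 RPM for Stat5a, and 1.44, 0.133 and 1.21 RPM for IgG. Stat5a fell after 2 rounds relative to 8 h, with a ratio of 0.193 (0.0781 to 0.435), and stood at the IgG level of that stage, while the Stat5b ratio was 1.10 (0.604 to 2.03). These Stat5a values rest on 9 reads after 2 rounds and 22 at 8 h. On distinct starts they rest on 7 and 15, and the ratio was no longer called.

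Region 11 (chr1:108416052-108416882) held 1.46, 6.64 and 8.23 RPM for Stat5b, 3.51, 3.85 and 2.56 RPM for Stat5a, and 0.961, 1.59 and 0.864 RPM for IgG. It was the region with the called Stat5b rise at 13 h, by 4.56 (2.32 to 9.99) over 8 h, with 60 reads at 13 h and 10 at 8 h. On distinct starts the ratio was 3.59 (1.62 to 9.01), no longer called. Region 9 (chr1:108412837-108413483) held 2.04, 3.32 and 6.66 RPM for Stat5b, 2.24, 1.93 and 6.77 RPM for Stat5a, and 0.160, 1.59 and 0.346 RPM for IgG. Its Stat5b ratio was 3.27 (1.78 to 6.39) and its Stat5a ratio 3.03 (1.36 to 7.96) for 2 rounds over 8 h, neither called. Region 21 (chr1:108447788-108448595) held 2.77, 5.09 and 4.70 RPM for Stat5b, 2.88, 2.89 and 6.02 RPM for Stat5a, and 0.641, 1.99 and 1.21 RPM for IgG, and no stage ratio there was called.

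**Figure D4:**
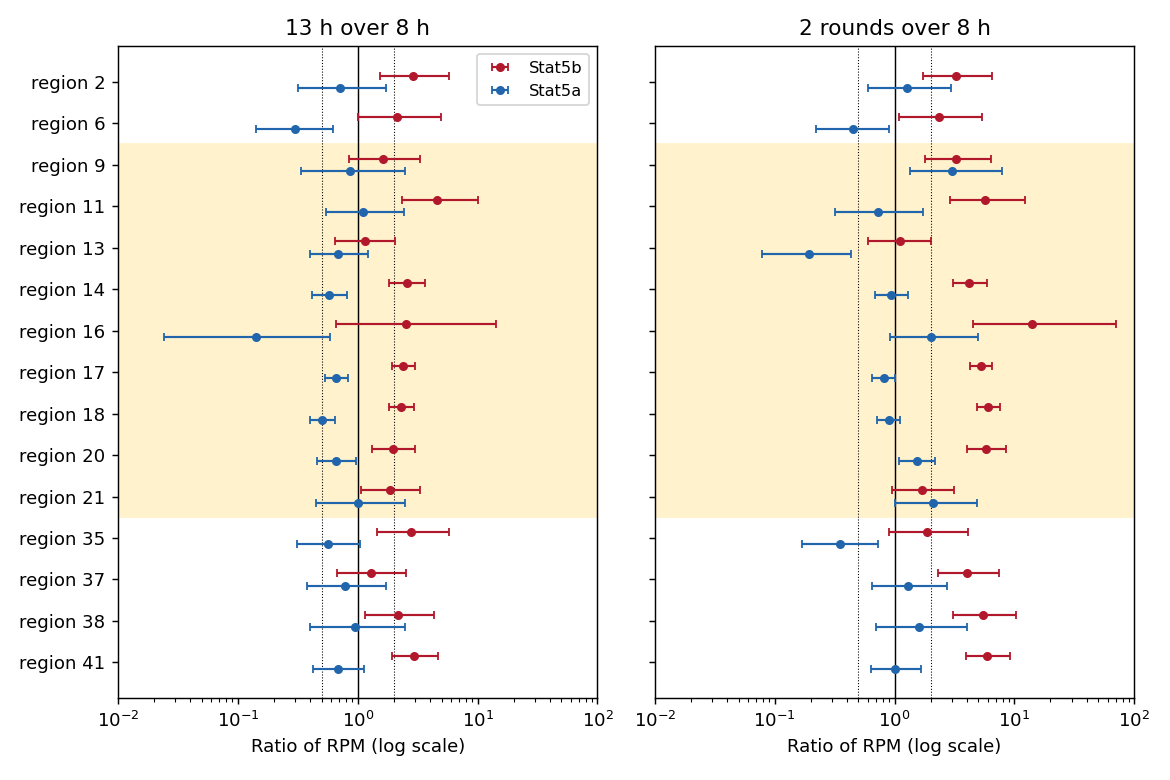
Ratio of RPM for 13 h over 8 h and for 2 rounds over 8 h, on a log axis, for Stat5b and Stat5a in the 9 dense-group regions found in at least 2 lists (shaded) and in 6 regions of the rest; bars are exact 95% intervals for counting error and dotted lines mark 0.5 and 2. Stat5b lies right of Stat5a in nearly every row, and in regions 14, 17, 18, 20 and 41 its 2-round interval lies wholly above 2 while that of Stat5a spans or nears 1.

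Outside the dense group region 41 (chr1:108586789-108588058) stood above the other 28 regions. It held 4.08, 12.1 and 24.2 RPM for Stat5b at 8 h, 13 h and after 2 rounds, 8.63, 5.90 and 8.73 RPM for Stat5a, and 0.641, 0.664 and 1.38 RPM for IgG. Its stage ratios resembled those of the dense group, with 5.93 (3.97 to 9.16) for Stat5b and 1.01 (0.631 to 1.66) for Stat5a for 2 rounds over 8 h. Only the Stat5b ratio was called.

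The next regions of the rest by RPM above IgG were regions 2, 6, 35, 37 and 38. Regions 37 (chr1:108539694-108540621) and 38 (chr1:108541211-108542450) lie close together and held 9.40 and 11.1 RPM for Stat5b after 2 rounds, against 2.33 and 2.04 RPM at 8 h, ratios of 4.04 (2.32 to 7.43) and 5.45 (3.07 to 10.4). Region 2 (chr1:108386104-108386824) held 1.89, 5.42 and 6.14 RPM for Stat5b and 3.19, 2.29 and 4.06 RPM for Stat5a, and none of its stage ratios was called. Region 6 (chr1:108394968-108395480) and region 35 (chr1:108534551-108535355) had their highest Stat5a level at 8 h. Region 6 held 1.46, 3.10 and 3.40 RPM for Stat5b and 6.07, 1.80 and 2.71 RPM for Stat5a. Its IgG library after 2 rounds held 0 reads, so Stat5b there was at least 6.55-fold higher and Stat5a at least 5.23-fold higher than IgG, with 0 taken as 3 reads. Region 35 held 1.75, 4.87 and 3.27 RPM for Stat5b and 6.39, 3.61 and 2.26 RPM for Stat5a. The Stat5a ratio of 2 rounds over 8 h was 0.446 (0.221 to 0.898) in region 6 and 0.353 (0.168 to 0.726) in region 35, neither called. Region 7, singled out after its values were seen, held 2, 16 and 40 Stat5b reads and 0, 10 and 41 Stat5a reads at 8 h, 13 h and after 2 rounds. It came only from 2-round lists, which favoured the higher reads at that stage.

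Set against Stat5a, Stat5b in the dense group was lower at 8 h and higher at the later stages. Stat5b RPM over Stat5a RPM was 0.391 (0.338 to 0.451) at 8 h, called lower, 1.40 (1.27 to 1.54) at 13 h and 1.93 (1.78 to 2.09) after 2 rounds, both not called. Over all merged regions, themselves chosen by peaks of these libraries, the medians were 0.547, 1.24 and 2.43. Relative to them the dense group stood at 0.714 (0.618 to 0.824), 1.13 (1.03 to 1.25) and 0.793 (0.733 to 0.859). In the 208 groups the medians at the 3 stages were 0.483, 1.42 and 2.02. The 9 regions at Bcl2 gave 0.393, 1.44 and 1.96, each inside the 10th to 90th percentile range of the groups. The value below 1 after 2 rounds thus holds against the median of single regions, while the group lay near the median of the groups. At 8 h region 18 was called lower for Stat5b, as were regions 24 and 32 with 2 Stat5b and 9 Stat5a reads each, which makes 3 of 42 with 3.8% in the genome. Regions 24 and 32 came from the Stat5a list at 8 h alone, which favoured their calls. None was called higher at 8 h, with 0.048% in the genome. At 13 h region 34 was called higher, with 2.08% in the genome, and none lower, with 5.33%. After 2 rounds regions 17, 18, 34, 40 and 41 were called higher, 5 of 42 with 17.2% in the genome, and region 19 lower, with 0.487% in the genome. Regions 34 and 40 came from the Stat5b list after 2 rounds alone, which favoured their calls at that stage. Regions 17, 18 and 41 gave 2.48 (2.12 to 2.91), 2.47 (2.12 to 2.89) and 2.77 (2.05 to 3.79). On distinct starts they gave 2.17 (1.73 to 2.74), 2.08 (1.69 to 2.57) and 2.56 (1.73 to 3.89), and 0 of 42 regions were called at any stage. Scaled by the median ratio of all merged regions, 0 of 42 were called higher at any stage and 1 lower after 2 rounds. How efficiently each antibody precipitates is not given in the sources used here, so these ratios compare shares of libraries and not numbers of bound molecules.

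Above IgG, 5, 14 and 21 of the 42 regions were called for Stat5b at 8 h, 13 h and after 2 rounds, where 2.92%, 17.5% and 46.5% of merged regions were called in the genome. For Stat5a 11, 7 and 11 were called, where 11.2%, 13.9% and 13.9% were. None was called below IgG at any stage, where 0.114%, 0.0891% and 0.151% of merged regions were for Stat5b and 0.0274%, 0.0503% and 0.0754% for Stat5a. On distinct starts fewer were called in every Stat5 library: 4, 9 and 17 for Stat5b and 7, 6 and 9 for Stat5a. Scaled by the median ratio over merged regions, 3, 3 and 2 were called for Stat5b and 4, 3 and 4 for Stat5a. That scaling also called 1 region lower for Stat5b after 2 rounds. On 25 bp reads alone 9 and 9 were called for Stat5b at 13 h and after 2 rounds and 7 for Stat5a after 2 rounds. No genome share is given here for these settings. In the dense group 4, 6 and 7 of 13 were called for Stat5b and 5, 5 and 7 for Stat5a.

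Mismatches, repeated starts and strands were not used to choose the regions. In the Stat5 libraries between 62.1% and 70.1% of the dense-group reads matched the genome with no mismatch, against 54.8% to 62.1% of all reads of those libraries, and in each of the 6 the group's share was the higher. In the IgG libraries the shares were 48.1% to 60.9% in the group and 53.4% to 57.4% overall. Distinct starts numbered 49.5% to 57.0% of the group's reads in 5 of the 6 Stat5 libraries, against 61.0% to 65.5% of all reads of those libraries. The sixth, Stat5b at 8 h, gave 73.0% (68.2% to 77.3%), an interval that holds its library's 74.1%. The plus strand held 44.7% (41.01% to 48.3%) of the group's Stat5a reads at 13 h, against 49.9% of that library. In the other 5 Stat5 libraries the interval held the library's share. No region of the window was a heap, defined as at least 20 reads of a library of which over 50% share 1 start and strand, whereas 56 merged regions of the genome were. In region 17 the largest pile on 1 start was 6, 12 and 16 reads for Stat5b and 7, 5 and 8 for Stat5a, of 108, 339 and 629 and of 128, 225 and 220 reads.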

How the data were processed

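The 9 libraries of ChIP-seq reads and 6 peak lists that were analysed each belong to 1 sample by its labels. The deposited read files give the positions of mapped reads, 24 or 25 bp long, on mm8, per the deposited file names, and the authors' peak lists give the start and end of each peak with no score. Which aligner, peak caller and thresholds the authors used, and whether IgG entered, is not given in the sources used here. The labels count 22 lanes, and no lane is marked in the files.

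From these, each read was reduced to its 5′ end. In the Stat5a library at 13 h the starts of 24 bp reads lay 1 bp downstream. There 14.3% of the 25 bp starts recurred, against 0.284% at the same base. In the other libraries with 24 bp reads these shares lay close together. They were 0.522% against 0.393% for IgG at 13 h and 0.650% against 0.465% for Stat5a after 2 rounds. For IgG after 2 rounds they were 0.635% against 0.499%. All 24 bp starts were moved 1 bp upstream. Joining all peaks of the 6 lists that share at least 1 bp gave 43771 merged regions (24.0 Mb). Reads were counted per region and per 500 bp bin and scaled to reads per 1000000 mapped reads (RPM), a unit computed here. Ratios carry exact conditional (Clopper-Pearson) intervals, RPM levels exact Poisson intervals and shares Wilson intervals, all at 95%. Intervals, and the floor of 3 reads used for a count of 0, cover counting error only, since the reads carry no molecular identifiers. All 18 comparisons were computed over every merged region, and only those of the window are printed. The call rule was also run on simulated Poisson counts with known changes, and the outcome is not given here. Those counts hold counting error alone, with no spread between preparations, repeated starts or choice by peaks. They therefore cannot show how the calls fare against these.

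The window, the dense group and the lists were chosen with earlier results of these data known. The named regions are the 9 of the dense group found in at least 2 lists and the 6 of the rest with the most RPM above IgG. Alternatives were distinct starts, reads moved 75 bp downstream, 25 bp reads alone, scaling by reads outside merged regions or by the median ratio over them, pooled IgG, bins of 200 and 1000 bp, stricter peak lists and a 50% reciprocal overlap. The whole span of the group, regions defined by the other antibody's lists the group without regions 17 and 18, and the median scaling for counts of called regions were added after seeing the data. No genome sequence of mm8 was used, so no sequence or motif is given. The software was scipy 1.17.1, numpy 2.4.6 and pandas 2.3.3 in Python 3.11.15, and figures were drawn with matplotlib 3.10.9.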

Additional observations from a re-analysis of the deposited data

Results flagged for a closer look

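The change between stages differed between the antibodies by more than counting error, with 1 library behind each value. For 13 h over 8 h the Stat5b ratio divided by the Stat5a ratio was 3.59 (3.03 to 4.25) in the dense group. It was 4.42 (2.79 to 7.01) in region 14, 3.60 (2.65 to 4.90) in region 17, 4.54 (3.26 to 6.32) in region 18 and 2.98 (1.75 to 5.07) in region 20. In these regions Stat5b was higher and Stat5a lower at 13 h than at 8 h, and region 6 showed the same with 7.16 (2.66 to 19.3). For 2 rounds over 13 h the dense group gave 1.38 (1.22 to 1.56). For 2 rounds over 8 h it gave 4.93 (4.20 to 5.80), and region 6 gave 5.23 (1.97 to 13.8). Region 6 did not stand alone there. The ratios given above for regions 14, 17, 18 and 20 were also higher for Stat5b than for Stat5a, and their quotients are not printed for these stages. Over all merged regions with reads in all 4 libraries the median of this quotient was 2.34 for 13 h over 8 h, 1.89 for 2 rounds over 13 h and 4.32 for 2 rounds over 8 h, in the same direction as at Bcl2. The 10th to 90th percentile ranges were 0.504 to 9.80, 0.496 to 8.15 and 1.06 to 17.1. Every quotient given here for Bcl2 lies inside the range of its stages. The intervals cover counting error, so a difference between single preparations of chromatin or of libraries and a difference between stages cannot be told apart.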

How the results depend on the processing

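Of the 138 alternative values for ratios of the dense regions, 119 kept their direction and their side of the call, among them every ratio to IgG. Counting each start once gave 0.943 for Stat5a at 2 rounds over 8 h, 1.95 for Stat5b at 13 h over 8 h, 2.04 for Stat5b at 2 rounds over 13 h and 0.442 for Stat5b over Stat5a at 8 h. Moving reads 75 bp gave 2.22 for Stat5b at 13 h over 8 h, not called. Scaling by reads outside merged regions gave 2.18 for Stat5b over Stat5a after 2 rounds, called. Scaling by the median ratio of all merged regions gave 0.920 for Stat5a at 2 rounds over 8 h, and 1.19, 0.855 and 1.03 for Stat5b at 13 h over 8 h, 2 rounds over 13 h and 2 rounds over 8 h. It gave 0.714 and 0.793 for Stat5b over Stat5a at 8 h and after 2 rounds. By construction this scaling sets the median region to 1. In the rest of the window it gave 0.971 for Stat5a at 2 rounds over 13 h, 0.714 and 0.984 for Stat5b at 2 rounds over 13 h and over 8 h, 0.943 for IgG at 2 rounds over 13 h and 0.904 for Stat5b over Stat5a after 2 rounds.

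Over the whole span of the group, Stat5b gave 1.96 at 13 h over 8 h and 2.13 at 2 rounds over 13 h, Stat5b over Stat5a gave 0.464 at 8 h, and IgG gave 1.31 at 2 rounds over 13 h. Without regions 17 and 18 these were 2.15, 1.94 and 0.413 for the first 3. None of these Stat5 ratios was called, and the cause was not tested.

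For the counts of called regions that follow, genome shares under the same setting are not given here. The median scaling for Stat5b at 2 rounds over 8 h is the exception. Whether a changed count is particular to the window was therefore not determined. Counting each start once left 7, 6 and 9 of 42 regions called above IgG for Stat5a at 8 h, 13 h and after 2 rounds. For Stat5b it left 4, 9 and 17. Between stages it left 0 lower for Stat5a at 13 h over 8 h, 0 higher at 2 rounds over 13 h, and 1 higher and 0 lower at 2 rounds over 8 h. For Stat5b it left 0 higher at 13 h over 8 h, 1 higher and 0 lower at 2 rounds over 13 h, and 13 higher at 2 rounds over 8 h. For Stat5b over Stat5a it left 0 lower at 8 h, 0 higher at 13 h, and 0 higher and 0 lower after 2 rounds. Moving reads 75 bp gave 1 higher for Stat5a at 2 rounds over 13 h, 2 higher for Stat5b at 13 h over 8 h, 0 lower for Stat5b at 2 rounds over 13 h, and for Stat5b over Stat5a 0 higher at 13 h and 0 lower after 2 rounds. On 25 bp reads alone, with fewer reads in 4 libraries, 9 and 9 regions were called above IgG for Stat5b at 13 h and after 2 rounds and 7 for Stat5a after 2 rounds. That setting gave 0 lower for Stat5a at 2 rounds over 8 h, and 0 and 3 higher for Stat5b over Stat5a at 13 h and after 2 rounds. Scaling by reads outside merged regions gave 8 higher for the last. Scaling by the median ratio of all merged regions, added after seeing the data, gave 0 higher for Stat5b at 13 h over 8 h, 1 higher and 2 lower at 2 rounds over 13 h, and 0 higher and 1 lower at 2 rounds over 8 h. It gave 1 lower for Stat5a at 2 rounds over 13 h, and for Stat5b over Stat5a 0 lower at 8 h, 0 higher at 13 h and 0 higher after 2 rounds.

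Bins of 1000 bp gave 8 and 10 called bins for Stat5a at 13 h and after 2 rounds, with 1.03% and 1.09% in the genome. On distinct starts 8, 8 and 9 bins were called for Stat5a at 8 h, 13 h and after 2 rounds, with 1.84%, 0.364% and 1.12% in the genome. For Stat5b 11 and 17 were called at 13 h and after 2 rounds, with 0.797% and 4.37%. In the upper 50% of each list by reads, the rest of the window held 0 and 11 peaks for Stat5b at 8 h and after 2 rounds and 2 for Stat5a at 8 h. Requiring each peak to share 50% of its length with the other left 3, 6 and 7 shared Stat5b peaks and 3, 6 and 7 shared Stat5a peaks at the 3 stages.

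No paired analysis was possible because each antibody and stage has 1 library and the labels give no replicate numbers. Depth limits the weak regions most: at 8 h a region needed several times the reads of IgG for its interval to clear 2, and the Stat5a library at 8 h had the fewest reads of the 9.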

Other observations

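Regions found in the Stat5a list at 13 h alone, picked out after their values were seen, held few reads in every library. Regions 12, 22, 29, 31 and 36 held 0, 0, 1, 2 and 1 Stat5a reads at 8 h, 12, 13, 9, 9 and 19 at 13 h, and 2, 7, 4, 5 and 15 after 2 rounds. Their IgG libraries at 13 h held 1, 0, 0, 0 and 3 reads. Of these regions only region 22 was called above IgG at 13 h. All of them entered through the Stat5a reads at 13 h, so their higher values in that library are a description.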
